A study of Mus musculus with 4 samples.

Results

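The cells described here are Foxp2 and Nr4a2 neurons of the embryonic mouse cerebellum, 56 cells of 12546 kept cells in 4 single-cell RNA sequencing libraries. Each library held cells sorted for tdTomato from cerebella dissected on embryonic day E14.5, with the tissue of several animals pooled. The 2 control libraries carried Atoh1-Cre/+ and R26LSL-tdT/+. The 2 En1/2 CKO libraries carried the same alleles and, in addition, En1lox/lox and En2lox/lox. In all 4 libraries the Cre recombinase is driven from Atoh1, so tdTomato, and in the CKO the loss of both Engrailed genes, depend on a history of Atoh1 expression. Other cells can be present only where they passed the sort. The study asked what the Engrailed transcription factors do in excitatory neurons of the cerebellar nuclei.

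A kept cell was a barcode with at least 500 genes, at least 1000 unique molecular identifiers (UMIs, each counting 1 captured RNA molecule) and at most 10% mitochondrial UMIs. A Meis2 neuron had at least 2 UMIs of Meis2, more of them than of Pax6, and none of Olig2, Tbr1 or Lmx1a, which left 2495 cells. In each, UMIs were summed over 5 small gene sets. Sum A was Gria1, Col25a1, Cntnap4 and Sema3e. Sum B was Bnc2, Npnt, Cntnap5a, Vstm2l and Zfhx3. Sum C was Grm5, Peg10, Magel2, Bcl11b and Nwd2. Sum D was Rflna, Hopx, Evx1, Lmcd1 and Fgf17. Sum E was Foxp2, Spon1, Nr4a2 and Grik1. A member had a sum E of at least 2 that was above each of the other sums. Since the members were chosen by these UMIs, the levels of the genes in the rule are a description and support nothing. The Meis2 neurons led in the same way by sums A, B, C or D, with at least 2 UMIs, served as the reference. They numbered 1320 and are called the A to D neurons. Their make-up differed between libraries. Sum D led 26 of them in control 1, 57 in control 2, 103 in CKO 1 and 37 in CKO 2. In the same order, sum A led 22, 28, 3 and 1, sum B 177, 505, 113 and 72, and sum C 16, 125, 26 and 9.

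Neurons of the Atoh1 lineage leave the rhombic lip of the cerebellum and become granule cells, unipolar brush cells or excitatory neurons of the cerebellar nuclei, which carry the output of the cerebellum. Meis2 marks the nuclei lineage among them and Pax6 the granule lineage. Foxp2 encodes a forkhead repressor known for its part in speech and vocal learning circuits and is also strong in Purkinje cells, which are GABAergic and do not come from the Atoh1 lineage. Nr4a2 encodes an orphan nuclear receptor that is an immediate early gene and is needed for midbrain dopamine neurons. Spon1 encodes F-spondin, a secreted guidance protein of the matrix, Grik1 a kainate receptor subunit, and Crh corticotropin-releasing hormone.

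Nr4a2, one of the pair that names the cells, is the gene of sum E with an entry in the sequence table used, so the sequence before its start is shown. Its induction by cyclic AMP and calcium is a textbook property. The gene lies on the minus strand of chromosome 2 (GRCm38, chr2:57106830-57124003). The 250 bases before its start, from the RefSeq table on GRCm38.p6, span chr2:57124004-57124253 and read, 5′ to 3′ on the gene's strand, with the short core of the cyclic AMP response element (TGACG on either strand) in capitals:
Nr4a2: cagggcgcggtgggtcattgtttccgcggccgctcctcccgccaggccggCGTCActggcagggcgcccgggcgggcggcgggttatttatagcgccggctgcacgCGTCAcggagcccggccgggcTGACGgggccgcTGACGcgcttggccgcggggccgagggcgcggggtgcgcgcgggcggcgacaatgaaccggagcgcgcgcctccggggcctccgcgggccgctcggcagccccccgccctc
The stretch holds 4 such matches, a motif searched with the sequence in view. At least 1 was present in 17.77% of the 32851 promoters of the same length, and 4 or more in 0.137% of them. The core of the Meis motif (TGACAG) and a homeodomain core (TAATTA) were absent from these letters, against 15.86% and 4.84% of promoters that hold them. The sequence of TGACAG shares its first bases with TGACG, but no match overlapped here. These are matches of letters, not measured sites.

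The 4 libraries held 14998150 to 33709450 UMIs over all barcodes, and 2007 to 3931 kept cells each. Kept cells were deeper in the CKO, with medians of 5352 and 5544 UMIs against 2734 and 2122 in the controls. The members did not share that gap: their medians were 3586 UMIs in control 1, 2672 in control 2, 3630.5 in CKO 1 and 2315 in CKO 2, and single members ranged from 1005 to 13322. Haemoglobin RNA stood apart in control 2. There the summed level of 15 markers of blood, vessel, microglial and mesenchymal cells was 978 CPM in the members (UMIs scaled to a common total per sum of cells). Of this, 965 CPM was haemoglobin, and the vessel markers Pecam1, Cldn5 and Kdr had 0 UMIs. The sum was 87.6 CPM in control 1 and 57.1 and 0 in the CKO. The A to D neurons of control 2 held 810 CPM of the 15 markers too. Of the barcodes, 75 occurred in more than 1 library, 18 of them among kept cells and 0 among members in both libraries. A search for doublets marked 1 member, in control 1.

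The members came from every library. Control 1 gave 9, control 2 gave 26, CKO 1 gave 10 and CKO 2 gave 11. Their summed RNA was 34234, 77730, 35011 and 37960 UMIs, so each library's profile rests on few cells. At the threshold, 13 members had a sum E of exactly 2, 8 had 3, and 35 had 4 or more, up to 16. Outside it, 236 Meis2 neurons had a sum E of 1 and 2134 had 0. Of the 125 Meis2 neurons with a sum E of at least 2, 15 were left out because another sum tied with it and 54 because another sum was higher. Sum B, the commonest sum among Meis2 neurons, reached or passed sum E in 50 of those cells.

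A low count of Foxp2 was also common in the granule lineage, so the rule was set against cells that should lack this identity. Among 6027 cells with at least 2 UMIs of Pax6 and more of it than of Meis2, 4.33% met the sum E part of the rule as counted, against 2.24% of Meis2 neurons. Median depth differed, at 5893 UMIs in the Pax6 cells. With every cell thinned to 2000 UMIs, 18 of 4818 Pax6 cells (0.374%) and 34 of 1624 Meis2 neurons (2.09%) met it. A UMI of Foxp2 was present at that depth in 6.40% of Meis2 neurons and 4.32% of Pax6 cells, and at least 2 UMIs in 2.16% and 0.249%. Lone Foxp2 UMIs were thus near the level of the granule lineage, and cells with several were not.

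Foxp2 (chromosome 6) supplied most of the sum. It gave 13 UMIs in 6 cells of control 1, 95 in 25 cells of control 2, 24 in 8 cells of CKO 1 and 47 in 10 cells of CKO 2, or 179 of the 294 UMIs of the 4 genes. It was detected in 49 of the 56 members. Nr4a2 gave 28, 20, 12 and 4 UMIs in the same order of libraries, in 9, 12, 5 and 2 cells. All 9 members of control 1 held Nr4a2, while 2 of 11 did in CKO 2. Spon1 gave 2, 14, 13 and 14 UMIs in 16 members, and Grik1 0, 1, 1 and 6 UMIs in 6 members.

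The genes of the sum were seldom seen together in full. Foxp2 and Nr4a2 were both detected in 23 members, Foxp2 without Nr4a2 in 26, Nr4a2 without Foxp2 in 5, and neither in 2. A gene of the sum stood alone in 22 members, and 8 members held 3 or 4 of the genes. Foxp2 had the highest UMI number in 32 members, Nr4a2 in 8, Spon1 in 4 and Grik1 in 1, with ties in 11. The 16 members with Foxp2 and no other gene of the sum formed the largest set with a lone gene. At these depths, an undetected gene is not shown to be absent.

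**Figure D1:**
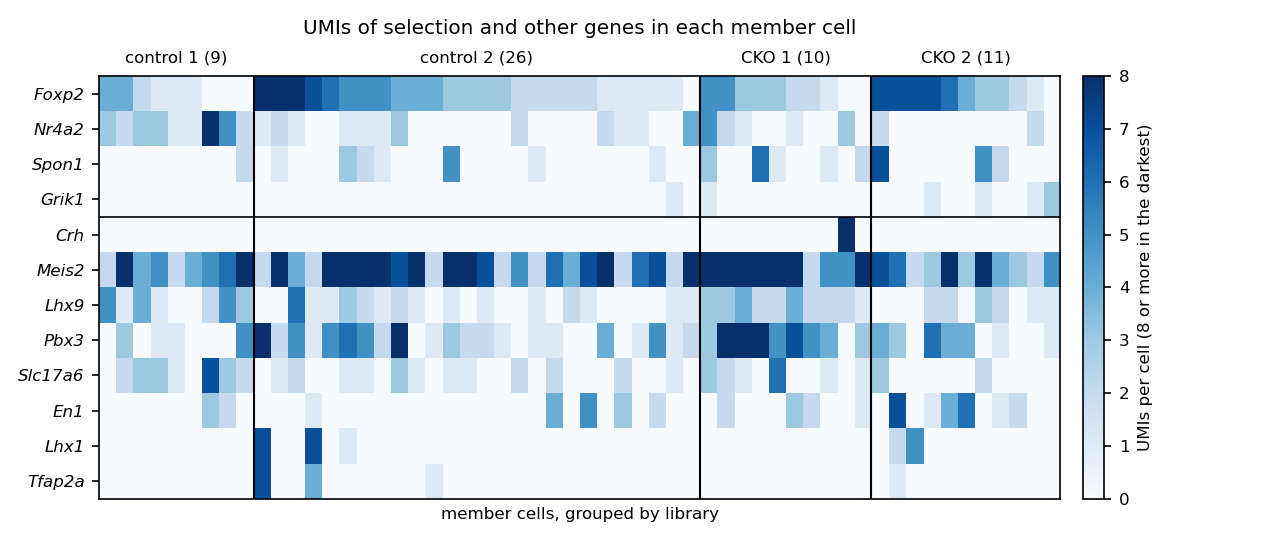
UMIs of the 4 genes of sum E (above the line) and of 8 other genes (below it) in each of the 56 members, 1 column per cell, grouped by library with the number of members in brackets. Foxp2 fills most columns outside control 1, Nr4a2 every column of control 1, Crh 1 column of CKO 1, and Lhx1 with Tfap2a a few columns of control 2 and CKO 2.

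Crh was proposed as a further marker and did not mark the members. It was found in 1 member, a CKO 1 cell with 44 UMIs of it, and in 0 of the other 55. That cell held 3 UMIs of Nr4a2 and none of Foxp2. Among all kept cells Crh was detected in 3 of control 1, 0 of control 2, 1 of CKO 1 and 1 of CKO 2. A neuron strong in Crh was therefore a lone event in these data.

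The label of excitatory neurons was checked on Slc17a6, the vesicular glutamate transporter of these neurons, which the rule did not use. It was detected in 7 of 9, 12 of 26, 6 of 10 and 2 of 11 members (control 1, control 2, CKO 1, CKO 2), 27 of 56 in all. Thinned to 2000 UMIs, 46.3% of the members held it, beside 41.9% of A to D neurons and 7.45% of Pax6 cells. Slc17a7, the other vesicular glutamate transporter on the list, had 0 UMIs in the members. Lhx9, a LIM homeodomain factor of nuclei neurons, was detected in 38 members, with 21, 25, 25 and 11 UMIs, and Slc17a6 or Lhx9 in 45. Other markers of the nuclei list were Pbx3 in 41 members, Meis1 in 33, Bcl11a in 27 and Lhx2 in 20. Rarer ones were Neurod1 in 14, Nhlh2 in 10, Nhlh1 in 9, Irx3 in 6, Zfpm2 in 3 and Pou3f1 in 2. Without Meis2, which the rule used, 12 of the 13 other markers of this list had UMIs in the members. Their summed level was 2366 to 4284 CPM beside 2438 to 3220 CPM in the A to D neurons. This likeness leans on Pbx3, at 292, 875, 1742 and 606 CPM in the members beside 311, 397, 462 and 363. Nhlh2 was lower in each library, at 0, 90.1, 85.7 and 52.7 CPM beside 156, 161, 428 and 476.

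Some members held markers of GABAergic neurons. At least 1 UMI of Gad1, Gad2, Slc32a1, Lhx1, Lhx5, Skor1, Skor2, Tfap2a, Tfap2b, Ptf1a or Pax2 was found in 7 cells, 5 in control 2 and 2 in CKO 2. The other markers of the list, such as Pcp4, with UMIs in 21 members, and Rora, in 8, were not used to choose these cells. Lhx1, a LIM factor of Purkinje cells, gave 15 UMIs in control 2 and 7 in CKO 2 and 0 in the other libraries. It was detected in 5 of 56 members (8.93%), a share near that of the A to D neurons, 109 of 1320 (8.26%). Tfap2a, a factor of GABAergic precursors, gave 12 and 1, again in those libraries, and was detected in 4 of 56 members and 5 of 1320 A to D neurons. Gad1 or Gad2, which make GABA, was detected in 4 members with 1 to 3 UMIs a cell. Gad1 was detected in 3.57% of members and 0.227% of A to D neurons, Gad2 in 5.36% and 2.05%, and Rora in 14.3% and 5.00%. Of these 7 cells, 6 were led by Foxp2, and 2 held a UMI of Slc17a6, against 25 of the other 49 members. A cell of control 2 held 11 UMIs of Foxp2, 7 of Lhx1, 7 of Tfap2a and 6 of Rora, the last an orphan receptor of Purkinje cells. Over the whole list, 11 of 19 markers had UMIs in the members, and its summed level was 117 CPM in control 1, 810 in control 2, 199.9 in CKO 1 and 501 in CKO 2. That sum in the A to D neurons was 196 CPM in control 1, 287 in control 2, 433 in CKO 1 and 604 in CKO 2. The members were lower in each library but control 2, but this order leans on Pcp4. Pcp4 alone gave 89.7, 216, 368 and 485 CPM in the A to D neurons and 87.6, 206, 171 and 132 in the members. Lhx1 stood at 193 CPM in control 2 members and 184 in CKO 2 members, beside 38.1 and 88.4 in the A to D neurons. Slc32a1, Slc6a5, Pax2, Ptf1a, Pcp2 and Tfap2b were at 0. A further 24 members had neither Slc17a6 nor any of the GABAergic genes used to choose the 7 cells. The members are therefore called by their leading genes rather than as 1 excitatory type.

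Most defining markers of neighbouring brain regions were at 0. Lmx1b, Phox2a, Dbh, Tph2 and Fev, which define noradrenergic and serotonergic neurons, had 0 UMIs. These genes were also at 0 to 0.98 CPM in the A to D neurons. Ddc and Slc18a2, of the same list, gave 3 UMIs and 1 UMI, each in 1 member of control 1. Of the hindbrain list only Hoxb3 (1 UMI) and Slc18a3 (2 UMIs) were present. Th, the first enzyme of catecholamine synthesis, gave 2, 31, 3 and 1 UMIs, 17 of them in 1 cell of control 2. It was detected in 10 of 56 members (17.9%), beside 287 of 1320 A to D neurons (21.7%). En1, on the same list as Th, had 49 UMIs in 17 members. Eomes and Calb2, of unipolar brush cells, were seen in 3 and 2 members, all in control 2. The proliferation genes Mki67 or Top2a were detected in 10 members, and the summed list of progenitor and glial markers stood at 175, 232, 257 and 685 CPM in control 1, control 2, CKO 1 and CKO 2. The A to D neurons were higher in each library, at 467, 361, 1037 and 712 CPM, but this order leans on Vim. Vim alone gave 276, 272, 685 and 495 CPM in the A to D neurons and 58.4, 142, 200 and 342 in the members. Top2a stood at 0, 25.7, 28.6 and 184 CPM in the members, beside 72.9, 38.1, 155 and 90.9. Mki67 stood at 0, 38.6, 0 and 79.0 CPM, beside 20.2, 11.7, 76.8 and 34.4.

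Members with and without an Nr4a2 UMI also differed in other counts. Slc17a6 was detected in 18 of 28 members with an Nr4a2 UMI and in 9 of 28 without. The neuronal RNA Snhg11 was detected in 23 and 13, and Sst, the somatostatin peptide, in 7 and 3. Engrailed 1 went the other way, in 5 members with Nr4a2 and 12 without, as did Robo3, a commissural guidance receptor, in 2 and 7. The library mattered: all 9 members of control 1 were on the Nr4a2 side and 9 of the 11 of CKO 2 on the other. Depth differed as well, with medians of 3384 and 2536.5 UMIs. Within control 2, which had 12 and 14 such cells, Slc17a6 was detected in 7 and 5. These counts were not tested, because cells of a library are not replicates.

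Outside the rule, the gene with the highest smallest ratio to the A to D neurons over the 4 libraries was Tenm1, a teneurin adhesion protein encoded on the X chromosome. Its level was 730.3, 386, 543 and 237 CPM in the members of control 1, control 2, CKO 1 and CKO 2, and 118, 86.5, 34.1 and 33.2 CPM in the A to D neurons. It was detected in 30 of 56 members and in 223 of 1320 A to D neurons. Thinned to 2000 UMIs, 46.3% of members and 11.9% of A to D neurons held it. The members were above the A to D neurons in each library for Tenm1, and this comparison has no test, because both sets were chosen from these counts.

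Genes for excitability were among the 20 genes with the highest smallest ratio over the 4 libraries. Cacna1h, a low-threshold calcium channel, had 6, 7, 4 and 3 UMIs in 13 members, 175, 90.1, 114 and 79 CPM beside 4.91 to 22.4 CPM. Grin2b, an NMDA receptor subunit, reached 143 to 351 CPM beside 17.5 to 159 CPM, and Camk2d, a calcium-dependent kinase, 132 to 204 CPM beside 24.7 to 70.6. Scg2, a granin of dense-core vesicles, was uneven: 83 of its 120 UMIs were in control 2, 19 of those in 1 cell. Negr1, an adhesion protein, was seen in 46 members at 632 to 1636 CPM, beside 142 to 550 CPM. Foxp4, a relative of Foxp2, had 3, 5, 2 and 4 UMIs in 9 members.

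**Figure D2:**
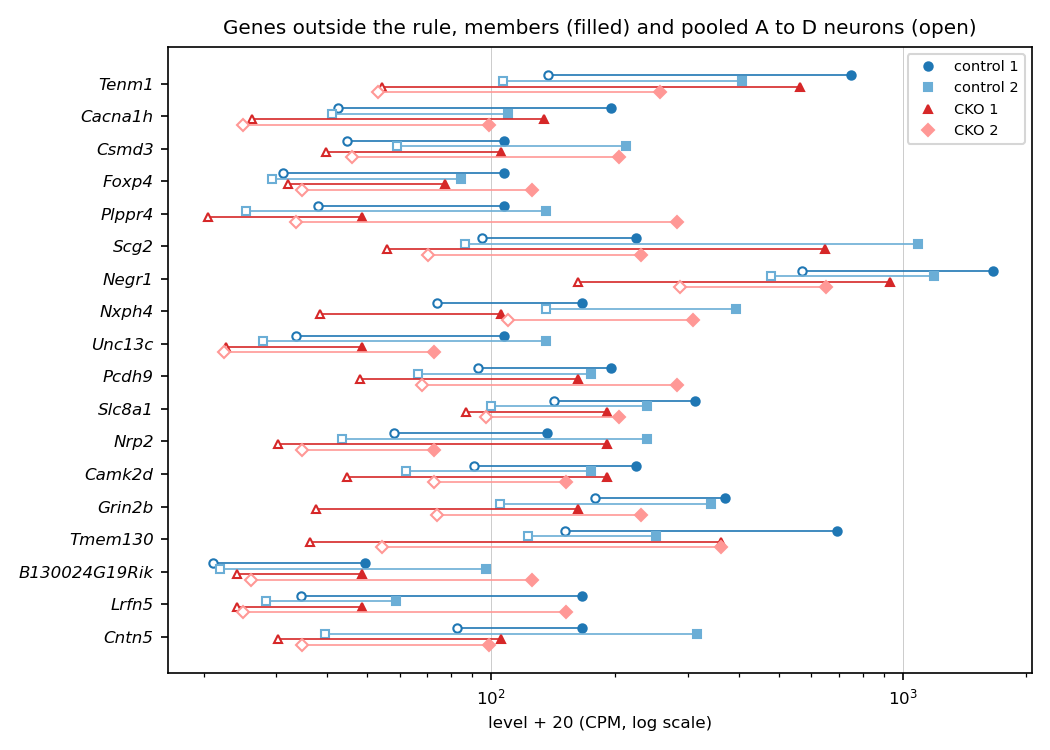
Level in CPM plus 20 (log axis) of genes outside the rule among the 20 with the highest smallest ratio, in the members (filled) and the pooled A to D neurons (open) of each library, joined by a line. For each gene and library the filled marker lies to the right, as the choice of genes requires, and Scg2 spreads most between libraries.

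Voltage-gated ion channel genes were higher in the members than in the A to D neurons more often than all genes together, as a description with no test. Gene lists were limited to genes with a mean of at least 20 CPM in the A to D neurons. Ratios to the A to D level, here and below, have 20 CPM added to both levels, which draws those of low genes towards 1. Over all 7113 such genes, 626 (8.80%) were higher in the members in all 4 libraries and 1014 (14.3%) lower, and the median log2 ratio of mean levels was -0.03. Of the 36 ion channel genes 19 passed, and of these 13 were higher in all 4 and 0 lower, with a median of 0.82. They included the sodium channel gene Scn3a (14, 32, 10 and 19 UMIs) and Dpp6, a subunit that tunes potassium channels (10, 21, 11 and 12 UMIs). Among the 9 of 22 glutamate receptor genes that passed, 4 were higher and 0 lower, with a median of 0.64. Gria2, the AMPA receptor subunit that blocks calcium entry, led them with 143, 110, 58 and 156 UMIs in 51 members, 1.45 to 4.59 times the A to D level. In the vesicle release list 11 of 25 that passed were higher and 0 lower, with a median of 0.52, among them Syt4 (27, 85, 18 and 20 UMIs) and Nrxn2 (20, 39, 20 and 26 UMIs).

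Neuropeptide genes were divided. Of the 32 on the list 12 passed, and 6 of these were higher in all 4 libraries, namely Scg2, Chga, Chgb, Cpe, Nxph1 and Nxph4, which encode granins, a peptide-processing enzyme and secreted neurexin ligands. Cck (0 UMIs in each library), Adcyap1 (0, 2, 0 and 0), Sst (11, 6, 2 and 0) and its receptor gene Sstr2 (1, 3, 1 and 1) were lower in all 4. A library with 0 UMIs counts as lower, so a lower level is not shown for genes with so few UMIs. In the axon guidance list 10 of 37 that passed were higher (median 0.25), among them the adhesion genes Chl1, with 20, 31, 26 and 27 UMIs, and Nrcam, with 13, 26, 16 and 17. Dcc, the netrin receptor, was lower with 14, 8, 13 and 18 UMIs, or 0.20 to 0.71 times the A to D level. Robo3, Cntn2 and Efna3 were lower too, the last on 1, 2, 2 and 1 UMIs. The list of spondins, reelin pathway and matrix genes had 2 of 11 higher, the amyloid precursor relatives Aplp1 and Aplp2, and 1 lower, the matrix gene Vcan.

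Fate factors were lower more often than higher. Of 41 homeodomain and other fate factors that passed, 2 were higher in all 4 libraries and 10 lower, with a median log2 ratio of -0.26, beside 14.3% lower over all genes. The lower ones were Lhx2, Irx1, Onecut1, Pou3f1, Pou3f2, Nfia, Nfib, Nhlh2, Neurod2 and Neurod6, several of them factors of young or other Atoh1-lineage neurons. Some rested on few UMIs, such as Pou3f1 (0, 1, 1 and 0) and Onecut1 (2, 1, 1 and 0). Nfib stood at 993, 450.3, 371 and 659 CPM in the members and at 1742, 839, 1298 and 1946 CPM in the A to D neurons. The higher ones were Zfhx4 and Myt1l. Pbx3, a TALE partner of Meis2, was 0.94, 2.15, 3.65 and 1.63 times the A to D level, so control 1 did not follow the other libraries.

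Other measures moved with these lists. Meg3, a noncoding RNA held in the nucleus, gave 634, 298, 258 and 336 UMIs, 1.32 to 7.25 times the A to D level, and Snhg11 1.84 to 7.84 times. Cytoplasmic messengers of the same list were divided. Tubb3, Tuba1a, Stmn1, Stmn2, Elavl4 and Basp1 were lower in all 4 libraries, with Tuba1a at 0.55 to 0.99 times. Tubb2a and Stmn4 were higher in all 4, at 1.15 to 2.34 and 1.39 to 2.57 times. Others, such as Map1b, Map2, Gap43 and Mapt, were higher in some libraries and lower in others. In the maturation list as a whole 7 of 29 were higher and 6 lower (median 0.06). The part of nuclear RNA content in the higher channel and receptor levels was not tested. Of 14 immediate early and stress genes 0 were higher in all 4 libraries and 5 lower, beside 14.3% lower over all genes. Among them were Junb, with 0, 1, 0 and 0 UMIs, and Btg2, with 1, 3, 4 and 3. Of 13 genes of the p53 and apoptosis list 0 were higher and 4 lower. These 4 were Trp53 (0, 2, 1 and 3 UMIs), Hrk (0, 0, 0 and 1), and Bcl2l11 and Bbc3 (0 in each library). At such counts a lower level is not shown, since a library with 0 UMIs counts as lower.

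**Figure D3:**
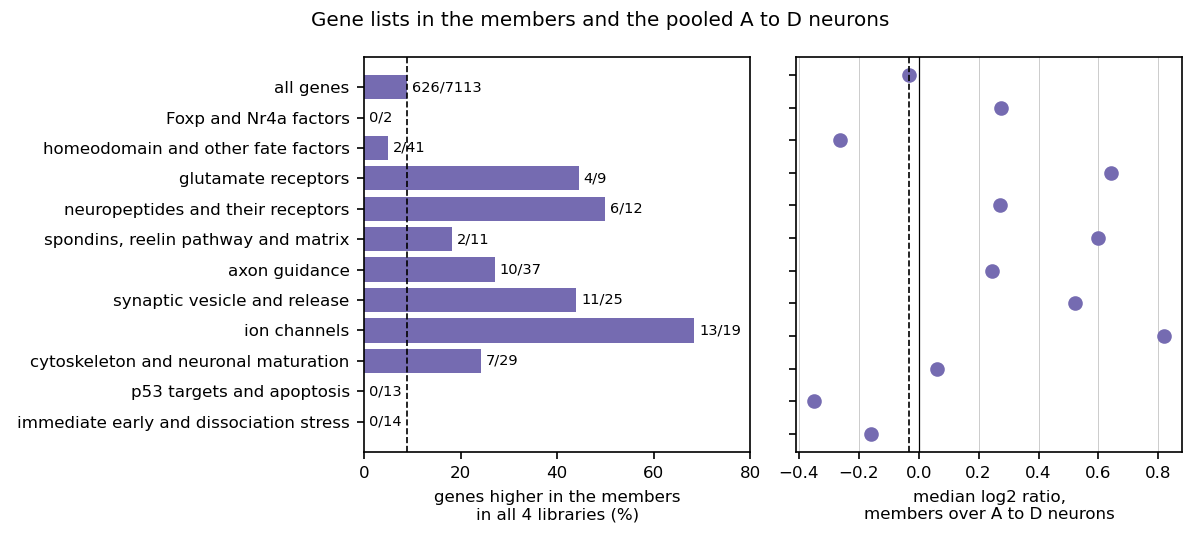
Left, percentage of genes of each list that were higher in the members than in the A to D neurons in all 4 libraries (number over genes with a mean of at least 20 CPM in the A to D neurons), with the value of all genes as a dashed line. Right, median log2 ratio of mean levels. Ion channels, neuropeptide genes, vesicle release genes and glutamate receptors lie furthest above the line on the left. The axon guidance, maturation and spondin and matrix lists lie above it too. Fate factors, Foxp and Nr4a factors and the stress lists do not.

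The Engrailed genes themselves were sparse in the members. The deposited counts are of 3′ ends, and whether these lie outside the deleted parts is not given in the sources used here, so the counts do not check the deletion. En1 gave 5, 15, 8 and 21 UMIs and En2 gave 2, 8, 2 and 2 UMIs in control 1, control 2, CKO 1 and CKO 2, and neither reached the minimum for the test. A UMI of En1 was present in 17 of 56 members and in 906 of 1320 A to D neurons. At 2000 UMIs per cell the shares were 24.4% and 58.4%. In level, with 20 CPM added to both, En1 was 0.28, 0.35, 0.69 and 0.75 times the A to D neurons, lower in every library. In those A to D neurons En2 was lower in the CKO (log2 fold change -2.46, SE 0.32, edgeR adjusted p = 0.00815). 2610027F03Rik, a noncoding transcript, gave 1, 1, 5 and 2 UMIs in the members and was higher in the CKO in the A to D neurons (1.14, SE 0.24, edgeR adjusted p = 0.0297).

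The share of members was compared between genotypes over the libraries. Members made up 0.309% of kept cells in control 1, 0.661% in control 2, 0.498% in CKO 1 and 0.298% in CKO 2, or 0.485% ± 0.249 (SD, n = 2) against 0.398% ± 0.142 (n = 2). The groups overlapped, and the exact permutation test, two-sided, gave p = 0.667. The log2 ratio of CKO over control was -0.31 (SE 1.07, adjusted p = 0.821 in edgeR over 8 cell classes). With control 2 left out it was 0.34 and with CKO 2 left out 0.03, so no direction held.

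Among Meis2 neurons the members took 2.24% in control 1, 1.78% in control 2, 2.70% in CKO 1 and 4.25% in CKO 2, or 2.01% ± 0.326 (SD, n = 2) against 3.47% ± 1.10 (n = 2). Both CKO libraries were above both controls. The exact permutation p, two-sided, was 0.333, the smallest that 4 libraries allow. The log2 ratio was 0.80 (SE 0.66, adjusted p = 0.571 in edgeR over 7 classes) and was not called. That fit shares 1 spread over all classes, so its p does not measure the spread of the member share alone. The denominator moved as well: Meis2 neurons numbered 402 in control 1, 1463 in control 2, 371 in CKO 1 and 259 in CKO 2. The rule also compares sum E with sums whose genes may themselves depend on genotype. All Meis2 neurons with a sum E of at least 2, whatever the other sums, made up 5.72% in control 1, 3.08% in control 2, 9.16% in CKO 1 and 8.88% in CKO 2 (log2 ratio 1.09, SE 0.60, edgeR adjusted p = 0.209).

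**Figure D4:**
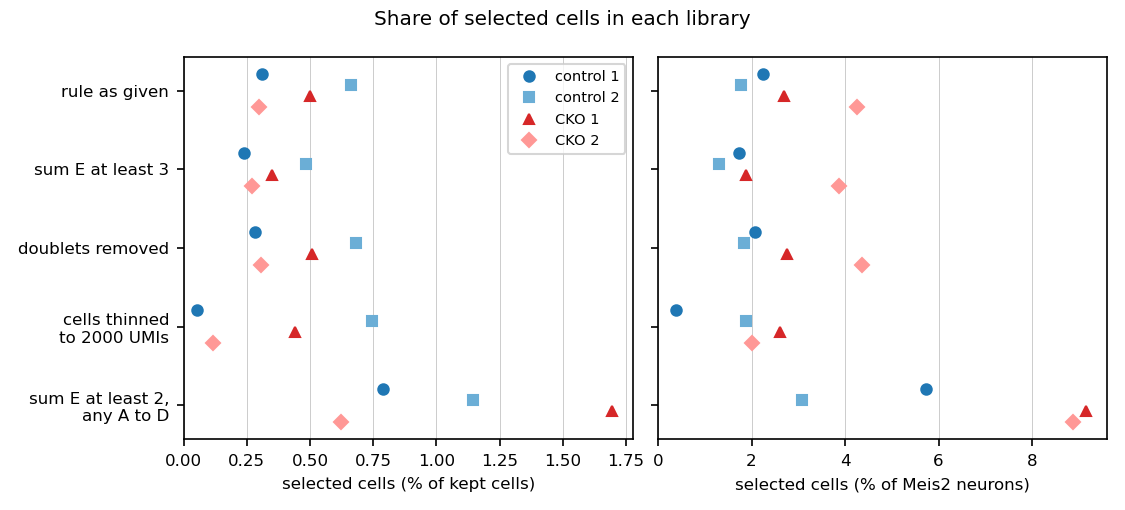
Percentage of selected cells among kept cells (left) and among Meis2 neurons (right) in each library, under the rule as given and 4 variations of it; 1 point per library. Under the rule as given the genotypes overlap among kept cells, and the CKO libraries lie above the controls among Meis2 neurons, as they do after thinning to 2000 UMIs.

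Gene levels in the members were compared between genotypes on UMIs summed per library. No gene was called: 0 of 631 tested genes (0%) passed an adjusted p of 0.05 in edgeR's quasi-likelihood test, in either direction, 24 (3.8%) had an unadjusted p under 0.05, and DESeq2 called 0 with 34 such genes. Both CKO libraries were above both controls for 102 genes (16.2%) and below for 97 (15.4%). In the A to D neurons, with far more cells, 427 of 10194 genes (4.19%) were called. Sum D led a larger part of these neurons in both CKO libraries than in the controls. The part of this make-up in the A to D fold changes, the interaction test and the ratios to these neurons was not tested. Few cells limit what can be detected in the members, and a p above the threshold does not show that genes did not change.

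The gene with the lowest p was Nr2f1, which encodes COUP-TFI, an orphan nuclear receptor that patterns neurons. It gave 20 UMIs in 6 members of control 1, 28 in 11 members of control 2, 2 in 2 members of CKO 1 and 5 in 4 members of CKO 2. Scaled by TMM these were 600.3, 356, 55.3 and 134 CPM, or 478 ± 173 in the controls and 94.7 ± 55.7 in the CKO (SD, n = 2 each), without overlap. The log2 fold change was -2.24 (SE 0.67, adjusted p = 0.742 in edgeR), so it was not called. In the A to D neurons Nr2f1 stood at 104 CPM in control 1, 175 in control 2, 160 in CKO 1 and 183 in CKO 2 (log2 fold change 0.26, SE 0.26). The difference between these fold changes was -2.67 (SE 0.67, adjusted p = 0.362 in edgeR's interaction test) and was not called either. It nevertheless had the lowest p of the 8841 genes in that test. Its relative Nr2f2 gave 5, 51, 2 and 5 UMIs and was too low in 3 libraries to be tested.

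After Nr2f1, the genes with the lowest p among those lower in both CKO libraries, none of them called, were Smpd3, Hmgcs1, Eif3c and Smc3. Smpd3, a neutral sphingomyelinase, gave 19, 31, 5 and 8 UMIs (log2 fold change -1.39, SE 0.55). In the A to D neurons its value was -1.31 (SE 0.41). Hmgcs1, an enzyme of sterol synthesis, gave 11, 41, 7 and 6 UMIs (-1.30, SE 0.55), and -0.62 (SE 0.25) in the A to D neurons. Eif3c, a translation initiation factor, and Smc3, a cohesin subunit, gave -1.25 (SE 0.54) and -1.45 (SE 0.63), beside -0.25 and -0.04. None of the A to D values named here for these genes passed the threshold, and the adjusted p in the members was 0.993 for each.

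The genes of lowest p in the other direction included Rps6, Rpl17, Rpl21 and Rpl13a, which encode ribosomal proteins. Rps6 gave 5, 12, 10 and 28 UMIs in the members, 150.1 CPM in control 1, 153 in control 2, 276 in CKO 1 and 751 in CKO 2 (log2 fold change 1.75, SE 0.56, adjusted p = 0.861 in edgeR). The others had log2 fold changes of 1.24 to 1.41 and were not called. In the A to D neurons the same genes were called higher in the CKO, Rps6 by 1.35 (SE 0.23, edgeR adjusted p = 0.0177) and the others by 1.13 to 1.36. Of all 70 tested genes for cytosolic ribosomal proteins, a list chosen after these values were seen, 30 were above both controls in both CKO libraries and 0 below, with a median log2 fold change of 0.70, beside 16.2%, 15.4% and a median of -0.0030 over all genes tested. Median UMIs per kept cell were higher in the CKO in the whole libraries, and their part in these values was not tested.

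**Figure D5:**
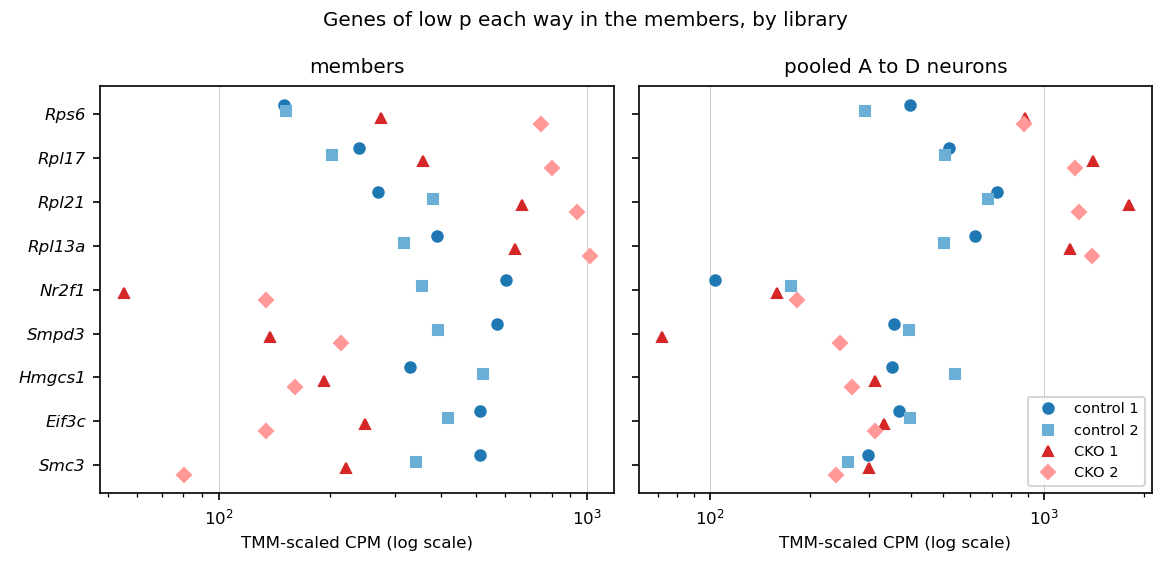
TMM-scaled CPM (log axis) of genes among the 5 with the lowest p in each direction in the members, in the members (left) and the A to D neurons (right); 1 point per library, none called in the members. The ribosomal protein genes lie higher in the CKO on both sides, and Nr2f1 lies lower in the CKO on the left and not on the right.

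The genes of the rule were also seen across genotypes, as a description. Foxp2 stood at 379.7 and 1222 CPM in the controls and at 685 and 1238 CPM in the CKO, with overlap. Nr4a2 stood at 818 and 257 CPM and at 343 and 105 CPM, also with overlap, and Spon1 at 58.4 and 180.1 CPM and at 371 and 369 CPM, without it. Lhx9, outside the rule, stood at 613 and 322 CPM and at 714 and 289.8 CPM (log2 fold change 0.12, SE 0.53), and Slc17a6 at 613 and 232 CPM and at 399.9 and 132 CPM (-0.61, SE 0.58), neither called. Tenm1 gave 25, 30, 19 and 9 UMIs (-0.51, SE 0.54) and was not called in the members. In the A to D neurons it was lower in the CKO (-1.50, SE 0.24, edgeR adjusted p = 0.0132).

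The lists gave no call either. Of the 27 tested genes of the maturation list, 2 lay above and 3 below in both CKO libraries, of the 9 axon guidance genes 3 and 0, of the 11 fate factors 2 and 2, and of the 7 vesicle release genes 2 and 1. Only 3 ion channel genes, 3 neuropeptide genes and 2 glutamate receptor genes had enough UMIs. These shares are to be read beside the 16.2% and 15.4% over all genes. Genes of the p53 and apoptosis list were too low for the test.

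A test of whether the genotype difference in the members departed from that in the A to D neurons called 0 of 8841 genes in edgeR (0%), with 370 (4.19%) at an unadjusted p under 0.05, and 0 in DESeq2 with 119. Taking every Meis2 neuron with a sum E of at least 2, including those led or tied by other sums, edgeR called 174 of 3003 genes, of which 112 were higher in the CKO and 62 lower. Genes of dividing cells and of granule cell precursors were among the higher calls: Top2a, with 5, 3, 102 and 53 UMIs, had a log2 fold change of 3.43, Mki67 and Atoh1 3.24 each, Ccnd2 2.83 and Barhl1 2.70. The part of such cells in this count was not tested. Of these genes, 86 were tested in the members and 84 had the same sign there, but the cells overlap and the count is a description. In the A to D neurons 110 of the 174 were called.

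Genes called when a library was left out rested mostly on 1 cell or 1 library. Crh was called with control 1, control 2 or CKO 2 left out, or with no minimum of UMIs, always on the 44 UMIs of 1 cell. Pvalb was called without CKO 1 on 32 UMIs of CKO 2, of which 31 were in 1 cell. Hbb-y, a haemoglobin gene, was called without control 1 on the 42 UMIs of control 2. Without control 1, Nr2f2 was called lower in the CKO, on 51 UMIs spread over 17 of the 26 members of control 2, against 2 and 5 UMIs (log2 fold change -2.80, SE 0.69, edgeR adjusted p = 0.0184). Without control 2, Atp1b1 was called, on 38 UMIs of control 1, and Xist, which was at 0 in control 1. Without CKO 2, Ebf1 was called, with 39, 99 and 5 UMIs in the libraries left and 42 in the one left out.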

How the data were processed

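The 4 libraries (2 control, 2 En1/2 CKO) were made with 10x Genomics 3′ chemistry. Cell Ranger 5.0.0 was used, per the submitters' processing notes, with build mm10. The deposited values are raw UMI counts per gene and barcode, per the file headers, with no normalization.

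Members, gene lists and marker lists were chosen with earlier results of these data known. Genes were named by these rules: the genes of the selection rule and Crh, En1, En2 and 2610027F03Rik; genes called between genotypes, filled up to 5 each way with those of lowest p (at least 10 CPM, both CKO libraries on 1 side of both controls, no sex-linked, mitochondrial or haemoglobin genes); the 20 genes outside the rule with the highest smallest ratio to the A to D neurons (20 CPM added to both levels, members at 50 CPM or more); and the leading genes of each list. The minimum of 20 CPM in the A to D neurons for lists was set after the data were seen. Some items that these rules select are not reported here. Lower members of lists and genes called only under an alternative were named after their values were seen.

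UMIs were summed per library over the members and tested with edgeR 4.0.16 in R 4.3.3 (filterByExpr, TMM and the two-sided quasi-likelihood test, Benjamini-Hochberg over all genes tested). An SE is the absolute log2 fold change divided by √F. The interaction fit had the library as a block. DESeq2 1.42.0 was an alternative. Cell numbers per class were tested in edgeR without TMM. The edgeR steps were tested on simulated data. Doublets were marked by the Scrublet method in scanpy 1.11.5 at an expected 0.8% per 1000 cells and left out only in an alternative. Thinned cells were drawn down to 2000 UMIs without replacement, and shallower cells were left out: 15 of the 56 members. Coordinates are from GENCODE M21 (GRCm38), which held 32235 of the 32285 gene IDs. The promoter table was matched by symbol and gave 1 of the 5 markers, Nr4a2.

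The labels do not say whether libraries of a group came from separate litters, so p-values measure only the spread between these libraries, which may be technical. Alternatives were other scalings, no minimum of UMIs, other thresholds, each gene left out of sum E, doublets removed, thinning, intact cells only (4000 UMIs or more, mitochondrial share up to 5%), a replicate block and each library left out. After the data were seen, 2 alternatives were added: members without GABAergic markers, and a sum E of at least 2 whatever the other sums.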

Additional observations from a re-analysis of the deposited data

How the results depend on the processing

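No gene was called in the members under other scalings, DESeq2, a sum E of at least 3, thinning, removal of doublets or removal of the cells with a GABAergic marker; thinning left 88 genes to test. With no minimum of UMIs 1 gene was called, and with 1 library left out 1 to 3 genes. Every Meis2 neuron with a sum E of at least 2 gave 174, in an alternative chosen after seeing the data. For the share among kept cells, the log2 ratio turned positive without Foxp2 in the sum (0.68), without Nr4a2 (0.43) and with sum E alone (0.24), and with 1 library left out it ran from -0.75 to 0.34. Among Meis2 neurons it stayed positive, at 0.42 to 1.81, in 15 alternatives and turned to -0.51 in intact cells (4000 UMIs or more, mitochondrial share up to 5%), which kept 2, 0, 1 and 1 members. Genotype fits of those cells could not be made. The replicate numbers are shared by the groups, but over 631 genes same-numbered libraries deviated from their group means with a correlation of -0.06. With a replicate block the log2 ratios were -0.26 and 0.84 and 0 genes were called. The interaction called 0 genes in its 6 alternatives, with a lowest adjusted p of 0.0894 in edgeR. The 10 named genes kept their sign in all 125 values computed. They were chosen with both CKO libraries on 1 side of both controls, so a kept sign was largely set by that choice and supports nothing. The ribosomal genes among them were called in the wider set of cells. Each library's profile rests on 9 to 26 cells.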
